A study of Mus musculus with 144 samples.

Results

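The sites described here are polyadenylation sites of mouse liver whose level in wild-type total RNA was highest around lights on. They were selected on wild-type total RNA alone: of 29199 sites in the authors' filtered list, a site was taken if its mean over 6 time points was at least 2 CPM (counts scaled to the same library total), its highest time mean was at least 2 times its lowest, and the highest fell at zeitgeber time 22 or 2. Zeitgeber time (ZT) counts hours after lights on where lights were on for 12 h and off for 12 h, so ZT22 is late night and ZT2 is early day. The rule gave 953 sites, 689 highest at ZT2 and 264 at ZT22, which is 5.277% of the 18060 sites that reached 2 CPM. By the same rule 691 sites were highest at ZT6 or ZT10 and 529 at ZT14 or ZT18.

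RNA was sequenced from the 3′ end (QuantSeq, which reads the stretch of a transcript next to its poly(A) tail), so a count belongs to 1 end of a gene and not to the gene as a whole. The 144 libraries form 4 series of 36, with 6 libraries at each of ZT2, ZT6, ZT10, ZT14, ZT18 and ZT22: total RNA, nuclear RNA and polysomal RNA of wild-type liver, and total RNA of Bmal1-/- liver. All mice were labelled as male C57BL/6J animals with free access to food and water. Their ages, the tissue in which Bmal1 was deleted and the deleted exons are not given in the sources used here. Nuclei were prepared from homogenized frozen tissue in hypotonic buffer over a sucrose cushion, and polysomes from a sucrose gradient in the presence of cycloheximide. The labels do not say whether a number marks 1 animal, whether the 3 wild-type fractions came from the same animals, or whether libraries came from separate animals, so p-values measure the spread between these libraries.

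The circadian clock of liver cells is a feedback loop. BMAL1 (gene symbol Arntl) and CLOCK bind E-boxes and drive the Per, Cry and Rev-erb genes, whose products then repress them. REV-ERB proteins, which are abundant late in the day, repress genes that carry REV-ERB and ROR elements, among them Arntl, Clock, Nfil3 and Cry1, so that such transcripts are known to peak late in the night and early in the day. Feeding at night, body temperature and hormones act on the liver beside this loop. A poly(A) site marks where a transcript was cleaved, and nuclear RNA is closer to synthesis than polysomal RNA, which is bound to translating ribosomes.

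The windows printed here show where a motif of the clock or of cyclic AMP signalling lies upstream of 5 genes whose sites are described further on (Tjp3 and Clpx were picked after windows and values were seen), and they are taken from RefSeq promoters of build GRCm38.p6, 250 bases before to 50 after each start. Capitals mark the motif, on whichever strand it reads.
Cry1, E-box, chr10:85185099-85185124, minus strand: tgccggtggtCACGTGgggtgcatgc
Cry1, E-prime box read on the other strand, chr10:85185118-85185143, minus strand: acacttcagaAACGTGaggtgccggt
Ppp1r3c, E-box, chr19:36736693-36736718, minus strand: gggaccggttCACGTGatctggcttt
Ppp1r3c, E-prime box, chr19:36736778-36736803, minus strand: ccgcggtgatCACGTTccaggggcag
Tubb2a, cyclic AMP element, chr13:34078050-34078077, minus strand: tctgcccccaTGACGTCAgcgggactgg
Clpx, E-prime box, chr9:65294149-65294174, plus strand: tctctggaatCACGTTagtctccacg
Tjp3, core of the REV-ERB and ROR element, chr10:81291773-81291799, minus strand: aggaaggaacTAGGTCAggagtgctcg
The first bases lie 60, 79, 104, 189, 59, 101 and 208 bases before a start of their gene. Both Cry1 windows and both Ppp1r3c windows lie in 1 promoter each, and the 2 Cry1 windows overlap. Tjp3 also held an E-box, not printed here, from 55 bases before a start. Of the 13 genes in the clock list or with the smallest p-values, 11 had a promoter in the table, and 6 of them held 1 or more of the motifs searched before the start. Beside Cry1, Ppp1r3c and Tubb2a these were Nfil3, with the REV-ERB and ROR core read on the other strand from 12 bases before its start, Hlf, with the cyclic AMP element from 9 bases before it, and Denn2b, with an E-prime box at 46. Clock, Chka, Pnkd, Slc30a10 and Insig2 held none of these letters there, which says only that they are not in this short window.

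The shares of genes that hold these motifs were compared without a test. Of the 712 genes with a member, 566 had a promoter in the table, and the letters were searched on both strands, with no removal of overlaps between motifs. CACGTG, the E-box, stood in 13.07% of the 566 genes, in 12.40% of 6349 genes with any site at 2 CPM and in 8.093% of all 27025 genes of the table. TAGGTCA, the core of the REV-ERB and ROR element, stood in 3.357%, 2.725% and 2.968% of the same groups. With the letters AAN before it, this core stood in 2 of the 566 genes, 12 of the 6349 and 70 of the 27025. CACGTT, the E-prime box, stood in 7.244% of member genes and 6.284% of genes at 2 CPM. For the cyclic AMP element TGACGTCA the shares were 3.357% and 3.701%, for the D-box TTANGTAA 2.297% and 2.111%, and for the heat shock core GAANNTTC 4.417% and 6.883%, with 9.036% of all genes of the table. These are counts of letters in a short window, and a match is not a measured binding site.

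The raw counts over all 86780 sites of the table summed to 4079501 to 7771094 per wild-type total library, 1404964 to 5720115 for nuclear, 1742356 to 10477400 for polysomal and 3175685 to 12217394 for Bmal1-/- libraries. Summed markers of hepatocytes differed by 1.024 to 1.081 times between the lights-on times (ZT22 and ZT2) and the opposite times (ZT10 and ZT14) in the 4 series. The targeted gene was checked first. Arntl averaged 11.46 CPM in Bmal1-/- libraries (5.169 to 18.57) and had time means from 9.165 to 13.11, while in wild-type total RNA they ran from 0.8522 ± 0.4728 at ZT10 to 12.58 ± 3.803 at ZT22 (SD, n = 6). A 3′ count of this gene can lie outside the deleted part, so its presence does not test the deletion. The labels are followed here.

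A single library shaped much of the choice. Wild-type total ZT2 replicate 4 had a median correlation of 0.7765 with the other libraries of its series, where the next lowest was 0.8815, and the smallest total. With it left out, the rule took 586 sites, of which 486 are members, and 467 members no longer met it. Leaving out any other of the 35 wild-type total libraries in turn retained 872 to 932 members. In 438 of the 467 sites, replicate 4 was above every other ZT2 library. The 486 sites are called retained and the 467 dropped from here on, and results are given for both. This split was not planned and was made after the effect of that library was seen.

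Another 4 libraries, 1 in each series, stood against the label of male mice or apart from the rest. Xist, the RNA that coats the inactive X chromosome of female cells, was above 100 CPM in 4 libraries, all at ZT22: replicate 5 of total RNA (408.4 CPM), replicate 5 of nuclear RNA (4363 CPM), replicate 1 of polysomal RNA (165.3 CPM) and replicate 6 of Bmal1-/- RNA (491.2 CPM). Ddx3y, a gene of the Y chromosome, was at 0.3804, 0 and 0.3524 CPM in the first 3 and at 92.87 CPM in the Bmal1-/- library, and it was at least 15.25 CPM in every library without Xist. In each wild-type series 1 library labelled male thus carried Xist with Ddx3y at or near 0, while the Bmal1-/- library carried both. Without the total library the rule retained 872 members, and without it and ZT2 replicate 4 it retained 414.

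In wild-type total RNA, whose values chose the sites, the median ratio of highest to lowest time mean was 2.345, the upper quartile was 2.839 and 90 sites reached 4. Mean levels had quartiles of 2.780, 4.564 and 10.08 CPM. At the edge of the rule, sites of Ass1 and Ski entered with ratios of 2.001 and 2.000, and sites of Mdp1 and the predicted gene Gm38426 stayed out with 1.999 and 1.999. The retained sites had median levels of 1.331 at ZT2, 1.330 at ZT22 and 0.6485 at ZT10 relative to their own mean over the day. The dropped sites had 1.556 at ZT2 and only 0.9972 at ZT22. In nuclear RNA the retained sites had relative medians of 1.220 at ZT22, 1.159 at ZT2 and 0.6937 at ZT10, and in polysomal RNA 1.187, 1.250 and 0.7343. The dropped sites lay between 0.9312 and 1.070 in nuclear RNA and ran from 1.134 at ZT2 to 0.9001 at ZT18 in polysomal RNA. In Bmal1-/- RNA the retained sites ran from 0.9310 to 1.055 and the dropped ones from 0.9140 to 1.105.

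**Figure D1:**
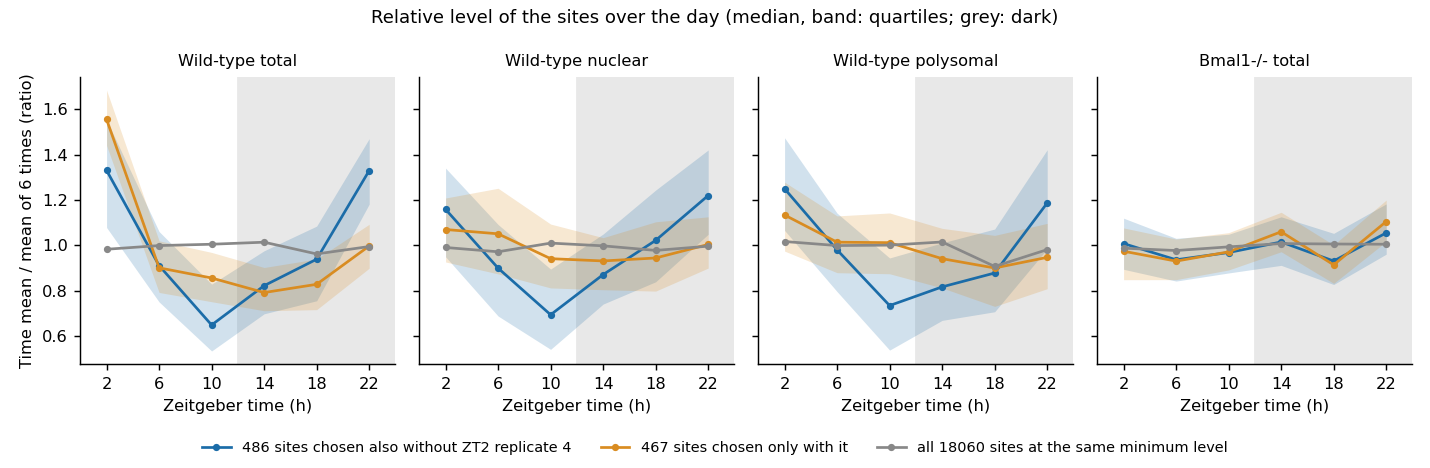
Median level of the sites at each zeitgeber time divided by their mean over the 6 times, in 4 panels for the 4 series, with bands from the lower to the upper quartile over sites and the dark phase in grey; blue is the 486 retained sites, orange the 467 dropped ones and grey all 18060 sites at 2 CPM. The blue line runs from 0.6937 at ZT10 to 1.220 at ZT22 in nuclear RNA and lies between 0.9310 and 1.055 in Bmal1-/- RNA; the wild-type total panel is the one the sites were chosen on.

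The mean level over sites was also followed library by library, as log2(CPM + 1). For the retained sites in polysomal RNA, the 6 libraries at ZT2 ran from 3.158 to 3.453 and those at ZT10 from 2.544 to 2.725, so these 2 times did not overlap. In nuclear RNA the ZT2 libraries ran from 2.672 to 3.145 and the ZT10 libraries from 2.418 to 2.503, again with no overlap. At ZT14 1 library stood high in each wild-type series: replicate 4 of total RNA with 3.465 against at most 2.777 in the others, replicate 4 of nuclear RNA with 3.256 against 2.776, and replicate 3 of polysomal RNA with 3.247 against 2.811. Bmal1-/- libraries ran from 2.865 to 3.404 over all 6 times. Across sites, total and nuclear libraries of the same number and time deviated together from their group means (mean Pearson r of 0.2207 over 36 pairs, with the own number best in 23), and total and polysomal libraries did not (mean r of -0.07176, own number best in 0). Wild-type total and Bmal1-/- total libraries, which cannot share an animal, gave a mean r of 0.1110 over 36 pairs, with the own number best in 12. This comparison pairs libraries by number only, and so cannot see sharing where numbers differ between fractions. At ZT22 the wild-type library with Xist was replicate 5 in total and nuclear RNA and replicate 1 in polysomal RNA. Whether the fractions share animals was not tested, and if they do, the nuclear and polysomal columns are not independent of the animals that chose the sites.

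**Figure D2:**
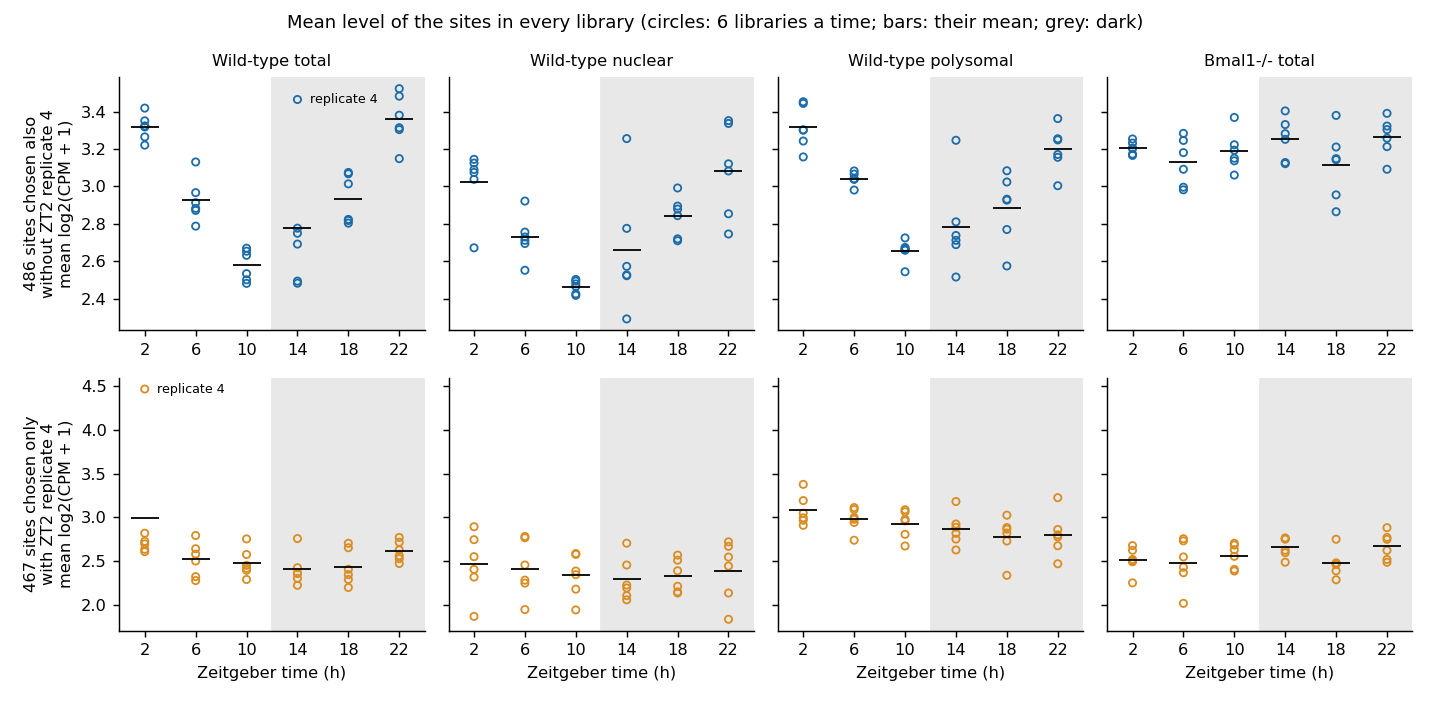
Mean log2(CPM + 1) over the retained sites (upper row) and the dropped sites (lower row) in each of the 144 libraries by zeitgeber time; circles are libraries, bars the mean of 6, grey the dark phase. In the lower left panel wild-type total ZT2 replicate 4 sits at 4.466, far above the other 5 libraries of its time, and in the upper row ZT14 replicate 4 sits at 3.465.

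The first question was whether sites chosen on total RNA followed the same daily course in nuclear RNA. For each site of the filtered list with at least 5 counts per library on average, the mean of ZT22 and ZT2 was set against the mean of ZT10 and ZT14 on the log2 scale, with edgeR's quasi-likelihood test and Benjamini-Hochberg adjustment at 0.05 over all sites tested. In nuclear RNA 78 of 817 tested members rose toward lights on and 0 fell. At an unadjusted p under 0.05, 249 members and 753 of all 17953 sites were higher. Over all 17953 sites the test called 0.657% higher and 0.774% lower, against 9.547% of members. The median log2 contrast was 0.30 for members and 1.083e-04 for all sites. Of the 78 called sites, 76 were retained sites (of 409 tested, median 0.61) and 2 were dropped sites (of 408 tested, median 0.11). The count was 69 of 812 without the library with Xist, beside 0.5638% of all sites, and 41 to 51 without replicate 1, 2, 5 or 6.

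In polysomal RNA the picture was close. Of 898 tested members, 76 rose and 0 fell, with 0.486% of all 21212 sites called higher and 0.486% lower. The members' median log2 contrast was 0.34, against 0.006201 over all sites. Among the retained sites 71 of 446 rose (median 0.69), and among the dropped ones 5 of 452 (median 0.12). Leaving out the library with Xist gave 70 of 895, beside 0.4279% of all sites, and leaving out replicate 2, 4, 5 or 6 gave 35 to 50. The dependence was largest between the first and last replicates. In replicates 1 to 3 alone 1 of 883 members was called higher, beside 1 of all 19908 sites (0.005023%). In replicates 4 to 6 alone 75 of 892 members were called higher (with 1 lower), beside 0.464% of all sites. The retained sites had medians of 0.60 and 0.73 in these parts, with median standard errors of 0.55 and 0.41. In nuclear RNA the parts gave 29 of 757 and 12 of 848, beside 0.2236% and 0.0857% of all sites.

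The other sets gave the opposite sign in the same contrast: of the sites highest at ZT6 or ZT10, 82 of 512 were called lower and 1 higher in nuclear RNA, and 62 of 578 lower and 2 higher in polysomal RNA. Of those highest at ZT14 or ZT18, 35 of 398 were lower and 4 higher in nuclear RNA, and 20 of 436 lower and 4 higher in polysomal RNA, where 39.22% of the contrasts were above 0.

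Members called in nuclear RNA rose by a median of 2.305-fold (1.508 to 9.971), and those called in polysomal RNA by 2.718-fold (1.597 to 9.994). The 2 lists shared 39 sites, which is 50% of the nuclear and 51.32% of the polysomal list, and together they held 115 sites of 82 genes. Among retained sites tested in both fractions, 325 of 388 had both contrasts above 0, and among dropped sites 194 of 399. Over all sites, 50.03% of the nuclear and 50.64% of the polysomal contrasts were above 0. Sites called in both fractions, or above 0 in both, were not counted over all sites, so these overlaps have no such share beside them. A direct test of the difference between the nuclear and the polysomal contrast called 0 members and 0% of 20922 sites. An unadjusted p under 0.05 was found for 23 of 911 members and for 529 of the 20922 sites. The members' smallest adjusted p in that test was 0.9998, and the median standard error of a difference was 0.4982. This does not show that the fractions followed the same course.

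**Figure D3:**
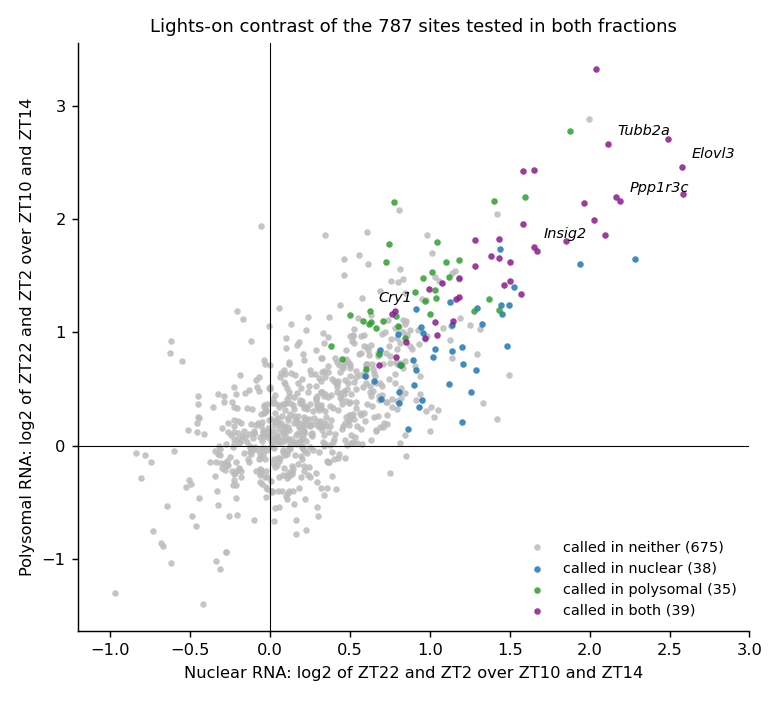
Lights-on contrast (log2 of ZT22 and ZT2 over ZT10 and ZT14) in nuclear RNA (x axis) and polysomal RNA (y axis) for the 787 members tested in both; each point is a site, coloured by the fraction in which it was called. The 39 sites called in both lie in the upper right, with Elovl3, Tubb2a and Ppp1r3c among them; Cry1 was called in polysomal RNA alone.

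The members include 6 sites that belong to 5 clock genes. Cry1 encodes a repressor of CLOCK and BMAL1, and its site (chr10:85131699-85131864, minus strand) lay at the annotated end of the gene. In wild-type total RNA its 6 libraries ran from 26.0 through a median of 47.3 to 55.8 CPM at ZT22, and from 3.42 through 7.54 to 9.15 CPM at ZT6. In nuclear RNA the lowest, median and highest were 8.67, 23.0 and 47.1 CPM at ZT22 and 0.343, 7.71 and 9.53 CPM at ZT10. The nuclear ZT10 and ZT22 libraries overlapped at the edge. In polysomal RNA the corresponding values were 29.9, 41.4 and 53.0 CPM at ZT22 and 2.62, 6.80 and 15.7 CPM at ZT10, with no overlap. Its contrast was called in polysomal RNA (log2 1.19 ± 0.25 SE, edgeR adjusted p = 0.00615) and not in nuclear RNA (0.62 ± 0.27, adjusted p = 0.465). The ZT18 and ZT14 libraries were also high, at medians of 30.8 and 22.7 CPM in polysomal RNA, so the lowest levels fell at ZT6 and ZT10.

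Nfil3, a repressor that binds D-boxes, had its site at chr13:52967207-52967428 on the minus strand, at the end of the gene. Nuclear libraries ran from 21.4 through 23.4 to 29.3 CPM at ZT2 and from 2.70 through 4.31 to 7.57 CPM at ZT10. Polysomal libraries ran from 20.8 through 39.4 to 62.6 CPM at ZT2 and from 4.05 through 5.84 to 9.83 CPM at ZT10. Neither fraction had overlapping libraries at these times. Nfil3 rose by 1.67 ± 0.23 on the log2 scale in nuclear RNA (edgeR adjusted p = 5.11e-06) and by 1.72 ± 0.26 in polysomal RNA (adjusted p = 4.31e-05).

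Clock, the partner of BMAL1, had 2 member sites. The one nearer the end of the gene (chr5:76210963-76211013, minus strand) had polysomal values of 11.5, 13.7 and 16.2 CPM at ZT2 and 1.40, 3.11 and 9.65 CPM at ZT10 (lowest, median, highest). It rose in polysomal RNA (log2 1.49 ± 0.28, edgeR adjusted p = 0.00113), and the nuclear contrast was 1.12 ± 0.40 with an adjusted p of 0.241, at nuclear levels of 0 to 6.23 CPM. The other Clock site, and the sites of Hlf (a D-box activator) and Csnk1d (a kinase of PER proteins), were not called in either fraction where they were tested, and the last 2 were dropped sites. In the whole clock list, 4 of 47 tested sites were called higher and 17 lower in nuclear RNA, and 4 of 56 higher and 19 lower in polysomal RNA.

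**Figure D4:**
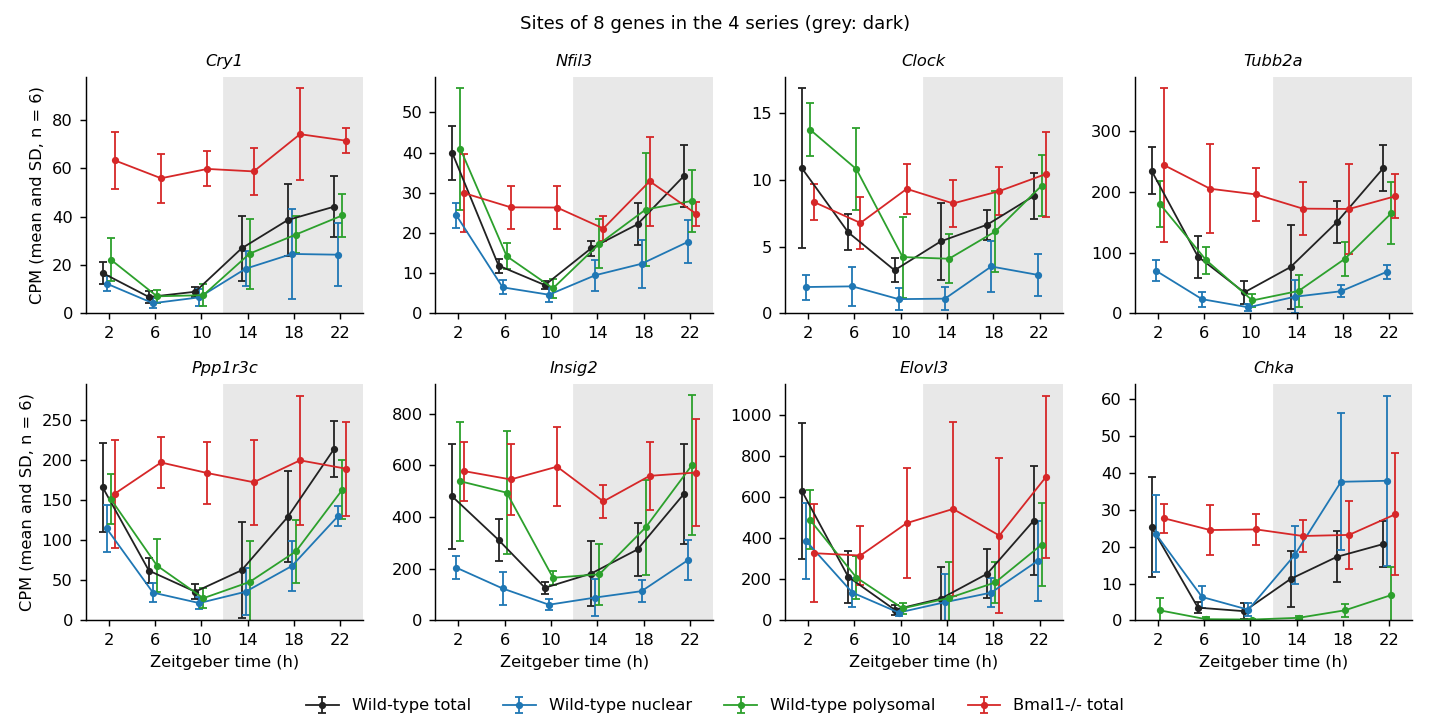
CPM of 1 site each of Cry1, Nfil3, Clock, Tubb2a, Ppp1r3c, Insig2, Elovl3 and Chka by zeitgeber time, as mean and SD of 6 libraries, in wild-type total (black), nuclear (blue), polysomal (green) and Bmal1-/- total RNA (red), with the dark phase in grey; each panel has its own axis from 0. The black lines are highest at ZT22 or ZT2, as the choice of sites requires, and lowest at ZT6 or ZT10. None of the 8 sites had a called contrast in Bmal1-/- RNA.

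Beside Nfil3, the smallest p-values among members belonged to sites of Tubb2a, Ppp1r3c, Insig2, Chka, Rnf125, Slc30a10, Pnkd and Denn2b. Tubb2a, a beta-tubulin, had its site at chr13:34074272-34074487 on the minus strand, at the end of the gene. Its polysomal libraries ran from 132 through 174 to 233 CPM at ZT2 and from 9.80 through 17.7 to 38.3 CPM at ZT10. Nuclear libraries ran from 46.01 through 69.3 to 91.3 CPM and from 4.50 through 8.01 to 18.8 CPM at the same times. These times did not overlap in either fraction. The rise was 2.66 ± 0.25 on the log2 scale in polysomal RNA (edgeR adjusted p = 6.42e-10) and 2.11 ± 0.32 in nuclear RNA (adjusted p = 4.41e-05). Another 3 tubulin sites, picked out after their values were seen, were called, each in 1 fraction: Tubb2b (polysomal, 2.63 ± 0.66), Tuba1c (polysomal, 0.76 ± 0.19, a dropped site) and Tubb4b (nuclear, 0.80 ± 0.21). Tubulin genes are alike in coding sequence, and whether 3′ end reads at these sites are shared between them was not tested.

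Ppp1r3c, which brings protein phosphatase to glycogen and so favours glycogen synthesis, had its site at chr19:36731728-36731962 on the minus strand. Nuclear libraries ran from 112 through 128 to 145 CPM at ZT22 and from 13.8 through 20.4 to 32.1 CPM at ZT10. Polysomal libraries ran from 124 through 153 to 216 CPM and from 12.2 through 26.4 to 47.8 CPM at these times. The lights-on libraries were all above the ZT10 ones. At ZT14 1 library reached 86.6 CPM in nuclear and 152 CPM in polysomal RNA, while the medians there were 21.02 and 29.4 CPM. Ppp1r3c rose by 2.19 ± 0.25 in nuclear RNA (edgeR adjusted p = 7.59e-08) and by 2.16 ± 0.27 in polysomal RNA (adjusted p = 9.36e-07).

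Insig2 encodes an endoplasmic reticulum protein that holds back the SREBP activators of cholesterol and fatty acid synthesis, and both of its member sites were called in both fractions. The upstream one (chr1:121305541-121305948, minus strand) ran from 117 through 225 to 344 CPM at ZT22 and from 32.7 through 57.9 to 92.0 CPM at ZT10 in nuclear RNA. It rose by 1.65 ± 0.28 in nuclear RNA (edgeR adjusted p = 2.52e-04) and by 1.75 ± 0.26 in polysomal RNA (adjusted p = 4.21e-05). The site at the end of the gene (chr1:121304347-121304597) rose by 1.43 ± 0.29 and 1.65 ± 0.32. Averaged over the day, both sites were lower in nuclear than in polysomal RNA, by a log2 difference of -1.01 ± 0.16 for the upstream site and -2.23 ± 0.18 for the end site.

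Elovl3, an elongase of very long-chain fatty acids, had 1 of the widest ratios (12.1 in wild-type total RNA). Its site at chr19:46135192-46135321 ran from 181 through 354 to 724 CPM at ZT2 and from 20.6 through 34.8 to 72.8 CPM at ZT10 in nuclear RNA. At ZT22 the library with Xist was at 1.014 CPM in nuclear and 0 CPM in polysomal RNA, while the other 5 libraries ran from 151.1 to 562.7 CPM and from 336.0 to 602.7 CPM. The rise was 2.58 ± 0.53 in nuclear RNA (edgeR adjusted p = 0.00497) and 2.46 ± 0.56 in polysomal RNA (adjusted p = 0.0188), and 2.71 and 2.59 without those libraries.

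Chka, choline kinase alpha, makes phosphocholine for phosphatidylcholine synthesis and had 5 member sites, all called in nuclear RNA (log2 2.04 to 2.59) and 4 of them in polysomal RNA. The site at chr19:3867432-3867627, far inside the gene, ran from 16.9 through 30.5 to 80.9 CPM at ZT22 and from 0.343 through 3.04 to 5.10 CPM at ZT10 in nuclear RNA. In polysomal RNA it ran from 0.373 through 5.44 to 21.1 CPM at ZT22 and from 0 through 0.238 to 0.468 CPM at ZT10. Nuclear levels at these times did not overlap, and polysomal ones did at their edges. All 5 Chka sites were higher in nuclear than in polysomal RNA, by log2 1.69 to 3.98. The site at the gene's end (chr19:3894243-3894339) was the one not called in polysomal RNA (1.65 ± 0.54, edgeR adjusted p = 0.191).

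Clpx, the unfoldase of a mitochondrial protease, had 8 member sites on chromosome 9, of which 3 of 7 tested were called in nuclear and 4 of 8 in polysomal RNA. The site at chr9:65330244-65330272 was called in both (2.17 ± 0.41 and 2.20 ± 0.37). Rnf125, a ubiquitin ligase, had 2 sites called in both fractions, the stronger rising by 1.59 ± 0.24 and 1.96 ± 0.25. Slc30a10, a manganese exporter, also had 2 such sites; the one at the end of the gene (chr1:185468667-185468768) rose by 1.28 ± 0.20 and 1.82 ± 0.28. Pnkd (chr1:74353516-74353692) rose by 1.18 ± 0.18 in nuclear RNA (edgeR adjusted p = 3.27e-05) and by 1.48 ± 0.16 in polysomal RNA (adjusted p = 2.66e-08), from polysomal ZT10 libraries of 61.0 to 110.3 CPM to ZT2 libraries of 186 to 259 CPM. A site at chr7:109523912-109524087, inside Denn2b but left unassigned because site and gene counts disagreed, was called in both fractions and rose by 1.62 ± 0.28 in polysomal RNA.

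Cdkn1a, which encodes the cell cycle inhibitor p21, had 2 member sites with ratios of 18.8 and 18.5 in wild-type total RNA. The one at the gene's end (chr17:29100603-29100729) ran from 13.6 through 33.2 to 37.6 CPM at ZT22 and from 0.199 through 1.96 to 4.49 CPM at ZT10 in nuclear RNA. At ZT2 it ran from 6.90 to 15.5 CPM. It rose by 1.96 ± 0.47 in nuclear RNA (edgeR adjusted p = 0.0183) and by 2.14 ± 0.54 in polysomal RNA (adjusted p = 0.0438, and 0.052 without the library with Xist). The upstream site was not called in either fraction (0.98 ± 0.54 and 1.86 ± 0.52).

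Other sites called in both fractions, picked out after their values were seen, belong to signalling and membrane genes: Ppard, a nuclear receptor for fatty acids (1.65 ± 0.29 in nuclear and 2.44 ± 0.43 in polysomal RNA), Avpr1a, a vasopressin receptor (1.86 ± 0.40 and 1.81 ± 0.37), Efna1, a ligand of Eph receptors (1.03 ± 0.20 and 1.09 ± 0.18), Ddc, aromatic amino acid decarboxylase (1.08 ± 0.20 and 1.44 ± 0.31), and Gdf15, a stress cytokine (1.15 ± 0.25 and 1.10 ± 0.28). Tjp3, a tight junction protein, was called in nuclear RNA (1.12 ± 0.22, edgeR adjusted p = 0.0023) and had a polysomal contrast of 1.27 ± 0.36 (adjusted p = 0.0893).

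Of the member sites in the gene lists, 0 were called lower in nuclear or polysomal RNA, but members were chosen for being high around lights on. Over all tested sites of a list, members or not, 0 of 110 xenobiotic sites were called higher and 11 lower in nuclear RNA, and 0 of 117 higher and 7 lower in polysomal RNA. Lipogenesis sites gave 2 of 54 higher and 8 lower in nuclear RNA, and 5 of 54 higher and 3 lower in polysomal RNA. Glucose and glycogen sites gave 1 of 39 higher in each fraction, with 6 lower in nuclear and 5 in polysomal RNA. Growth and stress sites gave 1 of 76 higher and 6 lower in nuclear RNA, and 1 of 79 higher and 5 lower in polysomal RNA. Cholesterol and bile acid sites gave 2 of 75 higher and 5 lower, and 2 of 89 higher and 5 lower. Amino acid sites gave 2 of 101 higher and 5 lower, and 0 of 109 higher and 3 lower. PPAR alpha sites gave 0 higher and 1 lower in each fraction, heat shock sites 1 higher and 0 lower in each, and ribosome biogenesis sites 0 calls.

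Among the member sites, cholesterol and bile acid genes held 8 member sites of 5 genes, with 2 of 6 tested called in nuclear and 2 of 8 in polysomal RNA, all in Insig2. Sc5d, a late enzyme of cholesterol synthesis, and Nr0b2, the repressor SHP, had nuclear contrasts of 0.61 ± 0.24 and 0.57 ± 0.20 that did not pass. Lipogenesis genes held 11 sites of 7 genes, with 2 of 11 and 2 of 10 called, all in Elovl3; Plin5, a lipid droplet protein, had 0.39 ± 0.15 in nuclear RNA. Glucose and glycogen genes held 4 sites with 1 called in each fraction, which was Ppp1r3c. Igfbp1 and Irs2, both induced in fasting, ran at log2 1.14 ± 0.57 and 0.81 ± 0.37 in nuclear RNA without a call. Heat shock and folding genes held 4 sites with 1 of 1 called in nuclear RNA (Sdf2l1) and 0 of 4 in polysomal RNA. Xenobiotic genes held 13 sites of 10 genes and 0 calls in either fraction, at median contrasts of 0.49 and 0.30. Amino acid genes had 1 of 10 and 0 of 11 called, growth and stress genes 1 of 10 and 1 of 11, ribosome biogenesis genes 0 of 2 and 0 of 2, and PPAR alpha genes 0 of 1 and 0 of 1.

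The widest ratios often rested on 1 library. The Cyp2c69 site had the highest ratio (109.0), from ZT22 libraries of 0 through 31.9 to 950.0 CPM in wild-type total RNA. The 950.0 CPM belonged to the library with Xist, and the libraries with Xist also stood at 265.4 CPM in nuclear RNA (others at most 20.24) and 402.9 CPM in polysomal RNA (others at most 50.73). In Bmal1-/- RNA the library with Xist was at 8.167 CPM. The nuclear contrast of Cyp2c69 was 0.35 ± 0.81 with that library and -0.84 without it, and it was not called either way. Cyp2a4 behaved alike, at 415.8 CPM in that total library against at most 28.47 CPM in the other 5. Cyp2c, Cyp2b and Cyp2a genes are families of near-identical copies, so their reads may be shared. Prlr, the prolactin receptor, had the most member sites (9), with 0 called in nuclear or polysomal RNA. Its strongest site stood at 117.9 CPM in the total library with Xist and at most 36.50 CPM in the other 5 at ZT22. Tat, tyrosine aminotransferase, ran from 1.63 through 6.97 to 532 CPM at ZT2, the highest in replicate 4, and its nuclear contrast was -0.05 ± 0.78.

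The sum of the cholangiocyte markers Krt19, Krt7, Epcam, Spp1, Sox9 and Cftr moved with the contrast, by 1.818 times in total, 1.416 in nuclear and 2.496 in polysomal RNA, and by 1.058 times in Bmal1-/- RNA. In polysomal RNA the sum ran from 17.37 to 81.52 CPM at ZT22 and ZT2 and from 11.33 to 36.46 CPM at ZT10 and ZT14, and 0 of the 6 genes were at 0 throughout. Sox9, a transcription factor of bile duct cells, held 3 of the member sites and most of the sum: 34.61 ± 16.71 against 12.70 ± 6.449 CPM in polysomal RNA (SD, n = 12). The other 5 genes summed to 6.440 ± 3.231 against 3.745 ± 1.232 CPM there, and to 13.24 against 15.78 CPM in nuclear RNA. Sox9 sites, singled out after their values were seen, were called in nuclear RNA (chr11.P02816 of the authors' list, 1.17 ± 0.18) and in polysomal RNA (the same site, 1.29 ± 0.25, and chr11.P02812, 2.15 ± 0.42). In bulk RNA more cells of a type and more RNA per cell cannot be told apart, and the part of cell composition in the member contrasts was not tested. The summed erythroid and neutrophil list, which holds members of Hba-a2 and Hbb-bs, moved by 1.360 times in wild-type total RNA and by 1.087 and 1.061 times in nuclear and polysomal RNA. The pancreas acinar list, with no member among its genes, moved by 2.860 times in polysomal RNA (554.7 against 193.9 CPM). Its lights-on libraries there ran from 8.662 to 6218 CPM and the opposite ones from 13.84 to 2040 CPM, at a median of 25.54 CPM over the series, and the other series gave ratios of 0.8774 to 0.9852. The lymphocyte list moved by 1.472, 1.158 and 1.224 times in wild-type total, nuclear and polysomal RNA and by 0.6865 times in Bmal1-/- RNA. For the stellate list the ratios were 1.113, 1.210 and 1.135, and 0.9978 in Bmal1-/- RNA. The endothelial list gave 1.010 to 1.159 over the 4 series, the Kupffer list 0.9091 to 0.9932 and the adipocyte list 0.8360 to 1.126. The part of these lists in the member contrasts was not tested either.

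In Bmal1-/- liver the contrast called 0 of 945 tested members in either direction, by edgeR and also by DESeq2, with 0% of all 25183 sites called higher and 0% lower. At an unadjusted p under 0.05 there were 32 members, 27 of them higher. Over all 25183 sites there were 783, 430 of them higher. The median log2 contrast was 0.05 over all members and 0.07 over the retained ones, with a median standard error of 0.24. The 3 smallest p-values belonged to Nudt5 (0.75 ± 0.21), a site on chromosome 3 with no gene (0.95 ± 0.29) and Psmd5 (0.56 ± 0.18), each with an edgeR adjusted p of 1. The difference between the wild-type and Bmal1-/- contrasts of members was not tested, because the wild-type total values chose the sites.

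At the single sites described here, the Bmal1-/- libraries of these times overlapped. Nfil3 in Bmal1-/- liver ran from 17.7 through 31.2 to 45.0 CPM at ZT2 and from 21.1 through 25.1 to 36.4 CPM at ZT10, and its contrast was 0.21 ± 0.14. Ppp1r3c had 131 through 170.3 to 277 CPM at ZT22 and 123 through 191 to 224 CPM at ZT10. Tubb2a had medians of 231 and 211 CPM at ZT2 and ZT10, and a contrast of 0.26 ± 0.22. Insig2 had medians of 525 and 558 CPM at these times.

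Levels without Bmal1 were read against the wild-type daily range, as a description. For 153 members (16.05%) the Bmal1-/- mean over the day lay above the highest wild-type time mean, for 93 (9.759%) below the lowest, and for 707 in between. Among retained sites 132 of 486 (27.16%) lay above, and among dropped sites 21 of 467 (4.497%). In 438 of the 467 dropped sites ZT2 replicate 4 was above every other ZT2 library. This lifts their highest time mean, so a low share above it is partly built in. For the sets highest at ZT6 or ZT10 and at ZT14 or ZT18 the shares above were 10.42% and 17.77%. Those sets were not split by single libraries, so they are not a like comparison for the retained sites. Cry1 averaged 63.9 CPM in Bmal1-/- liver, above its highest wild-type time mean of 44.2 CPM, with medians of 59.2 to 72.5 CPM at the 6 times. Cdkn1a (the end site) averaged 64.0 CPM against a highest wild-type time mean of 29.6 CPM, and the upstream site 181.9 against 67.1 CPM. Upstream Insig2 averaged 552.1 against 489.6 CPM. Nfil3 (26.9 CPM), Tubb2a (197.1 CPM) and Ppp1r3c (183.2 CPM) lay inside their wild-type ranges, whose highest means were 39.9, 238.6 and 213.6 CPM. Paqr9, picked out after its values were seen, was among those below the range, at 38.24 CPM in Bmal1-/- liver and 120.8 CPM in wild-type liver over the day, and its site rose in nuclear RNA (0.85 ± 0.19, edgeR adjusted p = 0.0071).

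**Figure D5:**
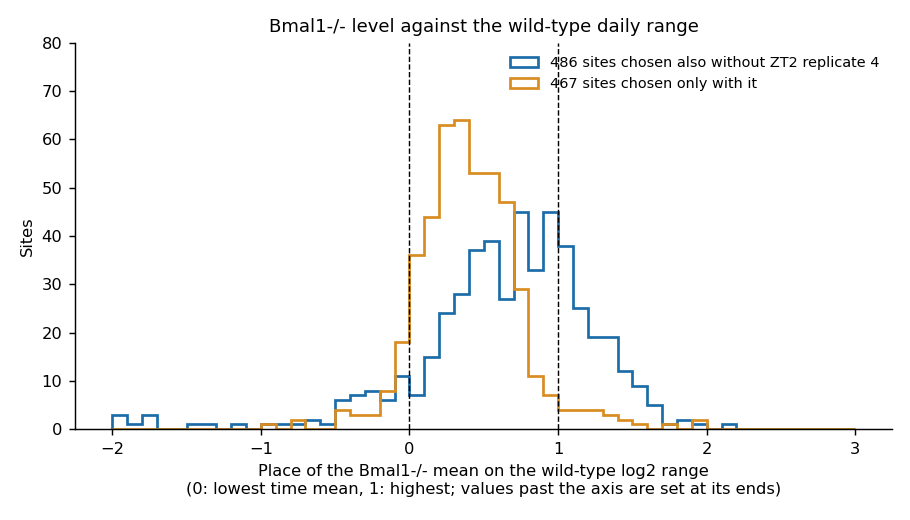
Number of sites (y axis) by the place of the Bmal1-/- mean level on the wild-type daily range of the same site on the log2 scale (x axis; 0 is the lowest and 1 the highest wild-type time mean), for the 486 retained sites (blue) and the 467 dropped ones (orange). Of the retained sites 132 lie to the right of 1 and 54 to the left of 0; of the dropped sites 21 and 39.

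The time of the highest mean was read in each series without a test. It fell at ZT22 or ZT2 for 51.52% of members in nuclear RNA, 61.59% in polysomal RNA and 48.48% in Bmal1-/- RNA, where all sites at 2 CPM gave 30.61%, 36.90% and 34.70%. Retained sites gave 63.17%, 72.84% and 46.09%, and dropped sites 39.40%, 49.89% and 50.96%. The members' median ratio of highest to lowest mean was 2.081 in nuclear, 2.154 in polysomal and 1.535 in Bmal1-/- RNA, beside 1.690, 1.808 and 1.379 for all sites.

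Nuclear and polysomal levels over the whole day were compared in 1 model over both fractions. Of 911 tested members 262 (28.76%) were higher in nuclear and 380 (41.71%) higher in polysomal RNA, where 36.6% and 39.3% of all 20922 sites were. The retained sites gave 162 and 162 of 458, and the dropped sites 100 and 218 of 453. Farthest toward the nucleus were sites of Pid1 (log2 8.23 ± 0.31), a site in the predicted gene Gm36041 (8.07 ± 0.47), Neat1, the RNA scaffold of nuclear paraspeckles (7.82 ± 0.39), and Elk3 (7.64 ± 0.30). The Pid1 site lay at -246930 bp from the end of the gene, and the Elk3 site at -11138 bp. At ZT22 the Gm36041 site ran from 6.23 through 34.0 to 65.1 CPM in nuclear RNA and was at 0 in all 6 polysomal libraries. It rose by 3.32 ± 0.60 in nuclear RNA (edgeR adjusted p = 9.0e-04), from ZT10 libraries of 0 to 1.80 CPM. Farthest toward polysomes were Selenof (-5.14 ± 0.56), Car8 (-4.71 ± 0.33), Atp5g3 (-4.61 ± 0.43) and Dbi (-4.05 ± 0.41), the last 2 encoding a subunit of ATP synthase and the acyl-CoA binding protein.

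Along genes, 859 members were assigned to 712 genes, 613 of which had 1 member and 99 more than 1. Retained sites were the last site of their gene in 44.30% and within 25 bp of the annotated end in 33.33%, where all sites at 2 CPM gave 39.16% and 26.91%. Dropped sites gave 67.96% and 49.27%, and were narrower, with a median width of 40 bp against 60 bp for retained sites. The sites highest at ZT6 or ZT10 gave 28.82% and 17.71%. The 339 genes of retained sites had 365 other sites at 2 CPM, which by definition did not meet the rule, and 176 of these were highest at ZT22 or ZT2 in wild-type total RNA. Of the other sites, 7 of 294 were called higher and 0 lower in nuclear RNA, where the share over all sites was 0.657% higher. In polysomal RNA 5 of 326 were called higher and 1 lower, where it was 0.486%, and the medians were 0.18 and 0.16. In 44 of 228 such genes with more than 1 site, every site was a member. In 72 genes a member stood beside a site of another set, 34 with a site highest at ZT6 or ZT10 and 39 with one highest at ZT14 or ZT18. Crot, Car3 and Bhmt were the first of these by the level of the weaker site.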

How the data were processed

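The authors deposited raw counts per polyadenylation site and per gene for each library, lists of all and of filtered sites, and normalized tables that were not used here. STAR 2.4.2a, edgeR and HOMER, and the builds mm10 and GRCm38.p5, are named in the submitters' processing notes, without their roles. Site counts were divided by the total of their column and given as CPM. The members and gene lists were chosen with earlier results of these data known. A site was given to a RefSeq gene (GRCm38.p6 table) that holds it on the same strand or ends up to 1000 bp before it. Where no promoter gave a gene's strand, its sites did (179 members), and 94 members stayed without a gene. Tests used R 4.3.3 with edgeR 4.0.16 (quasi-likelihood, robust, TMM) on the raw counts of filtered sites that averaged 5 counts or more over the libraries fitted, separately for each series, with Benjamini-Hochberg adjustment over all of them; DESeq2 1.42.0 was an alternative. Scripts were tested on simulated data. Of 360 pairs of libraries within groups, 0 were identical, and no pair agreed more closely than a chi-square of 2.499 per degree of freedom. Named sites follow a fixed rule: clock genes, the widest ratios, the smallest p-values per fraction, the largest nuclear and polysomal differences, threshold neighbours, up to 4 per gene list, genes with members in other sets, most sites and highest CPM; others are said to be chosen after their values were seen.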

Additional observations from a re-analysis of the deposited data

Results flagged for a closer look

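In groups of 6 libraries, the highest or lowest value was compared with its nearest neighbour relative to the range of the group. This was done for the members' mean log2(CPM + 1) in all 24 groups of series and time and for the sites with the widest ratios, and chance alone singles out about 1 in 20 groups. That rate does not hold in wild-type total RNA, whose values chose the sites. There 1 high library at ZT22 or ZT2 can by itself bring a site in. All the libraries named below belong to that series. The members' mean level singled out wild-type total ZT2 replicate 4, at 3.883, and wild-type total ZT14 replicate 4, at 3.118. At ZT22, replicate 5 of wild-type total RNA, the library with Xist, stood apart for the sites of Cyp2c69 (950.0 CPM), Cyp2a4 (415.8 CPM) and Cyp2b9 (60.01 and 150.7 CPM at 2 sites). At ZT2, replicate 4 stood apart for Tat (531.7 CPM) and Sdhd (85.79 CPM). At ZT22, replicate 6 stood apart for Mt2, a metallothionein (42.97 CPM).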

How the results depend on the processing

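The count of members called higher was 78 of 817 in nuclear RNA, and 120 of 817 with the replicate number as a block. In replicates 1 to 3 alone it was 29 of 757, beside 0.2236% of all sites. In replicates 4 to 6 alone it was 12 of 848, beside 0.0857% of all sites. Sites chosen on replicates 1 to 3 and tested in replicates 4 to 6 gave 12 of 897. Leaving out 1 number at a time gave 41 to 88. In polysomal RNA the count of 76 of 898 became 44 against the other 4 times and 116 with the replicate block. It was 1 of 883 in replicates 1 to 3 alone, beside 0.005023% of all sites. Sites chosen on replicates 1 to 3 and tested in replicates 4 to 6 gave 73 of 953, beside 0.464% of all sites. Leaving out 1 number at a time gave 35 to 93. Shares over all sites are not given for the block, the other 4 times or the left-out numbers. The cause of these changes was not tested. Libraries of 1 series with the same number deviated together in 74, 63, 75 and 71 of 90 pairs (Pearson r above 0.1), at mean r of 0.194 to 0.260 against -0.0519 to -0.0383 for other numbers. This is a hint of shared structure by number from the data, not the design: the labels do not say what a number marks, and not every pair passed 0.1, so the block is given as an alternative. The members higher in polysomal than nuclear RNA numbered 380 of 911 (41.71%), and 196 of 544 with sites chosen without ZT2 replicate 4, where fewer sites were tested. The share was 35.37% among the retained sites and 39.3% over all sites. The Bmal1-/- count was 0 in every alternative run. Not called in any setting, the polysomal contrast of Hlf (-0.30) became 0.93 in replicates 1 to 3 and ran from -0.56 to 0.094 with 1 number left out (0.094 without replicate 6), and that of Csnk1d (0.46) ran from -0.0012 without replicate 4 to 0.78 without replicate 6. No library of the nuclear, polysomal or Bmal1-/- series had a median correlation under 0.8, so leaving out such a library gave no value there. Sites under 5 counts per library were not tested, which left 817 members in nuclear and 898 in polysomal RNA, at median standard errors of 0.31 and 0.35.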
